A study of Homo sapiens with 12 samples.

Results

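The hypoxia response outside glycolysis was followed through 36 genes, out of 60668 genes in the count table. They were picked by gene symbol, with earlier results of these data known. They comprise the subunits of the hypoxia-inducible factors (HIFs) and the enzymes and adaptor that sense oxygen and destroy them. The rest are HIF targets other than glycolytic enzymes and glucose transporters. By role, they fall into 3 HIF subunits, 5 oxygen sensors and regulators, 3 secreted signals, 5 genes of mitophagy and metabolic switching, 2 carbonic anhydrases, 1 lipid droplet gene, 5 growth and stress signalling genes, 4 Jumonji dioxygenases, 6 collagen hydroxylases and lysyl oxidases, and 2 further hypoxia-induced genes. CA9 was too low to test in either cell line, and CA12 and EGLN3 were too low in H1299.

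HIFs are pairs of an oxygen-labile alpha subunit, encoded by HIF1A or EPAS1, and a stable partner encoded by ARNT. When oxygen is plentiful, prolyl hydroxylases mark the alpha subunit, the VHL protein recognises the mark, and the ubiquitin system destroys it. When oxygen falls, the alpha subunit persists and, with ARNT, binds hypoxia response elements near genes for vessel growth, mitochondrial turnover, pH balance and matrix cross-linking. Control of the alpha subunits is thus largely at the protein level, which RNA counts do not read.

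Bulk RNA-seq was done in 4 groups of 3 libraries. PANC-1 pancreatic adenocarcinoma cells carried an shRNA against FOSL1 (shFOSL1), which encodes the AP-1 subunit FRA1, or a scrambled control shRNA. H1299 lung adenocarcinoma cells carried an shRNA against the histone deacetylase HDAC2 (shHDAC2), or the scrambled control. All cells, controls included, were thus shRNA carriers, and the genotype field of the controls reads WT. They grew in DMEM with fetal bovine serum in an ordinary CO2 incubator, and no label names a low-oxygen treatment, so the values describe the HIF programme of cultured cells and its response to each knockdown. The study describes viral delivery in the pLKO.1 vector and puromycin selection for the FOSL1 shRNA. The study also knocked down FOSL1 in H1299, where RNA was measured by RT-qPCR. In the sequenced libraries each target was hit with 1 shRNA in 1 line, and no source states whether replicates were transduced separately. The p-values thus measure the spread between these libraries, which may be technical.

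The libraries held 16065723 to 19173421 counts. FOSL1 was at 169, 159 and 158 CPM (counts scaled to a common library size, with TMM factors) in the shFOSL1 libraries and at 212, 210 and 234 CPM in the PANC-1 scramble libraries, a log2 fold change of -0.43 ± 0.062 (SE), so a large part of the transcript remained. HDAC2 was at 80.9, 71.5 and 81.5 CPM in the shHDAC2 libraries and at 177, 187 and 196 CPM in the H1299 scramble libraries (-1.26 ± 0.065). FOSL1 itself was higher in shHDAC2 than in H1299 scramble libraries (0.40 ± 0.058), while HDAC2 changed little in PANC-1 (0.050 ± 0.067). The share of counts from mitochondrially encoded genes was 12.9% ± 0.40 in shFOSL1 and 7.16% ± 0.15 in PANC-1 scramble libraries (SD, n = 3 each), and 11.7% ± 0.66 in shHDAC2 and 12.5% ± 0.64 in H1299 scramble libraries. Scramble replicate 1 stood apart in both lines: a chi-square of the counts over genes, divided by its degrees of freedom, was 7.98 and 10.9 against the other PANC-1 scramble libraries and 7.77 and 6.83 against the other H1299 ones, where the remaining pairs within groups gave 2.34 to 3.79. Epithelial markers (6 of 6 at 1 CPM or more) summed to 1474 to 1506 CPM in shFOSL1 and 1949 to 2489 CPM in PANC-1 scramble libraries. Of 6 pancreas lineage markers, 2 were at 1 CPM or more in PANC-1. These were SOX9 (mean of 240 CPM over both groups, and 179 CPM in H1299) and PDX1 (2.13 CPM). PTF1A and PRSS1 were at 0 in all PANC-1 libraries. In H1299 the epithelial markers summed to 358 to 382 CPM in shHDAC2 and 574 to 632 CPM in scramble libraries, with KRT19, EPCAM and CDH1 below 1 CPM, and of 6 lung lineage markers only NKX2-1 averaged over 2 CPM, with SCGB1A1 at 0. Markers of immune, vessel and stromal cells summed to 72.3 to 78.5 CPM in shFOSL1 and 218 to 275 CPM in PANC-1 scramble libraries, nearly all of it COL1A1, and to 9.69 to 11.4 CPM in shHDAC2 and 11.9 to 14.3 CPM in H1299 scramble libraries. Each group was a culture of 1 cell line, and bulk counts do not show whether a change was in all of its cells or in some.

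Promoter windows, from 250 bases before to 50 bases after a transcription start, were given by RefSeq (GRCh38.p14) for 28 of the 36 members. Those without a window here are VHL, VEGFA, BNIP3L, HILPDA, NDRG1, JMJD6, LOXL2 and ZNF395. The core of the hypoxia response element, ACGTG or GCGTG on either strand, was present in a window of 24 of the 28 members (85.7%) and of 52.4% of the 27305 genes with a window. ACGTG alone was present in 18 members (64.3%, against 24.9% of all genes) and GCGTG in 16 (57.1%, against 40.6%). ACGTG overlaps the E-box CACGTG, which other factors bind, and 8 members (28.6%, against 8.77%) held the whole E-box. A gene with several start sites counted as holding a motif when any of its windows did, and these matches are descriptions of the letters, not of binding. All genes with a window were not matched to the members in number of windows, base content or expression. The shares are thus no test of enrichment.

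FRA1 acts through AP-1 sites, and TGACTCA or its reverse complement TGAGTCA was found in 3 of the 28 members, CA9, KDM3A and KDM4C (10.7%, against 6.05% of all genes). The stretches below lie upstream of a RefSeq start site and read 5′ to 3′ on the strand of the gene. They were chosen because the members change most in the results that follow (ANKRD37, PLOD2, ADM, PDK1, BNIP3, BHLHE40, EGLN2, EPAS1) or hold an AP-1 match. Capitals mark the element core, or in the lines named AP-1 that site.
ANKRD37, chr4:185396676-185396705, plus strand: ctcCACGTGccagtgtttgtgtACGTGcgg
PLOD2, chr3:146161374-146161403, minus strand: agcgctGCGTGagcctccaCACGTagccgc
ADM, chr11:10304960-10304989, plus strand: gagcaggagcgcGCGTGgctgaggaaagaa
PDK1, chr2:172556065-172556089, plus strand: ctgcccgcCACGTccctCACGTacc
BNIP3, chr10:131982040-131982069, minus strand: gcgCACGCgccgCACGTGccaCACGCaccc
BHLHE40, chr3:4979263-4979292, plus strand: ACGTGcctggagtcacagggtagaaCACGT
EGLN2, chr19:40799130-40799159, plus strand: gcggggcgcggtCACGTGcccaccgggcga
EPAS1, chr2:46297278-46297307, plus strand: gggcctgccggcGCGTGcccgcccacacac
CA9, chr9:35673898-35673927, plus strand: tcgtttccaatgCACGTacagcccgtacac
CA9 AP-1, chr9:35673840-35673869, plus strand: agggcgctctgTGAGTCAgcctgctcccct
KDM3A AP-1, chr2:86441410-86441439, plus strand: gctgccgccggTGACTCAgggaggcgggag
KDM4C AP-1, chr9:6757903-6757932, plus strand: gtaagcccacgTGACTCAccaagtgcgggc

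BNIP3 and ANKRD37 thus carried the densest runs among those shown, with 4 and 3 matches in 30 bases, overlapping ones counted. In KDM4C the AP-1 match overlapped an E-box. CA9, the carbonic anhydrase long used as a hypoxia marker, held both kinds of match but was almost silent, as its levels show.

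The lines began from different levels. On the scale of CPM per kilobase of exon, DDIT4 was the most abundant member in PANC-1 scramble libraries (227 ± 10.2, SD, n = 3), ahead of ADM (75.6 ± 4.20) and CITED2 (72.5 ± 5.30), and ADM and CITED2 did not differ beyond their spread. In H1299 scramble libraries LOXL2 led (37.1 ± 2.88), ahead of CITED2 (27.1 ± 0.07) and HIF1A (26.7 ± 1.45), and CITED2 and HIF1A did not differ beyond their spread. HIF1A exceeded EPAS1 in both lines, by a narrow margin in PANC-1 (19.9 ± 2.34 and 15.0 ± 0.23) and widely in H1299 (26.7 ± 1.45 and 1.10 ± 0.06). With all 12 libraries scaled together and no test made, 26 members were higher in PANC-1 scramble than in H1299 scramble libraries without overlap, 7 were higher in H1299 and 3 overlapped. Of the 18505 genes tested over both lines, 37.3% were higher in PANC-1 without overlap and 39.6% in H1299. NDRG1 had 152 CPM in PANC-1 and 3.45 CPM in H1299, ADM 176 CPM and 8.81 CPM, and EPAS1 110 CPM and 8.02 CPM. AK4, BNIP3L, LOXL2, ZNF395, KDM4C, EGLN2 and HIF1A were the 7 that were higher in H1299.

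**Figure D1:**
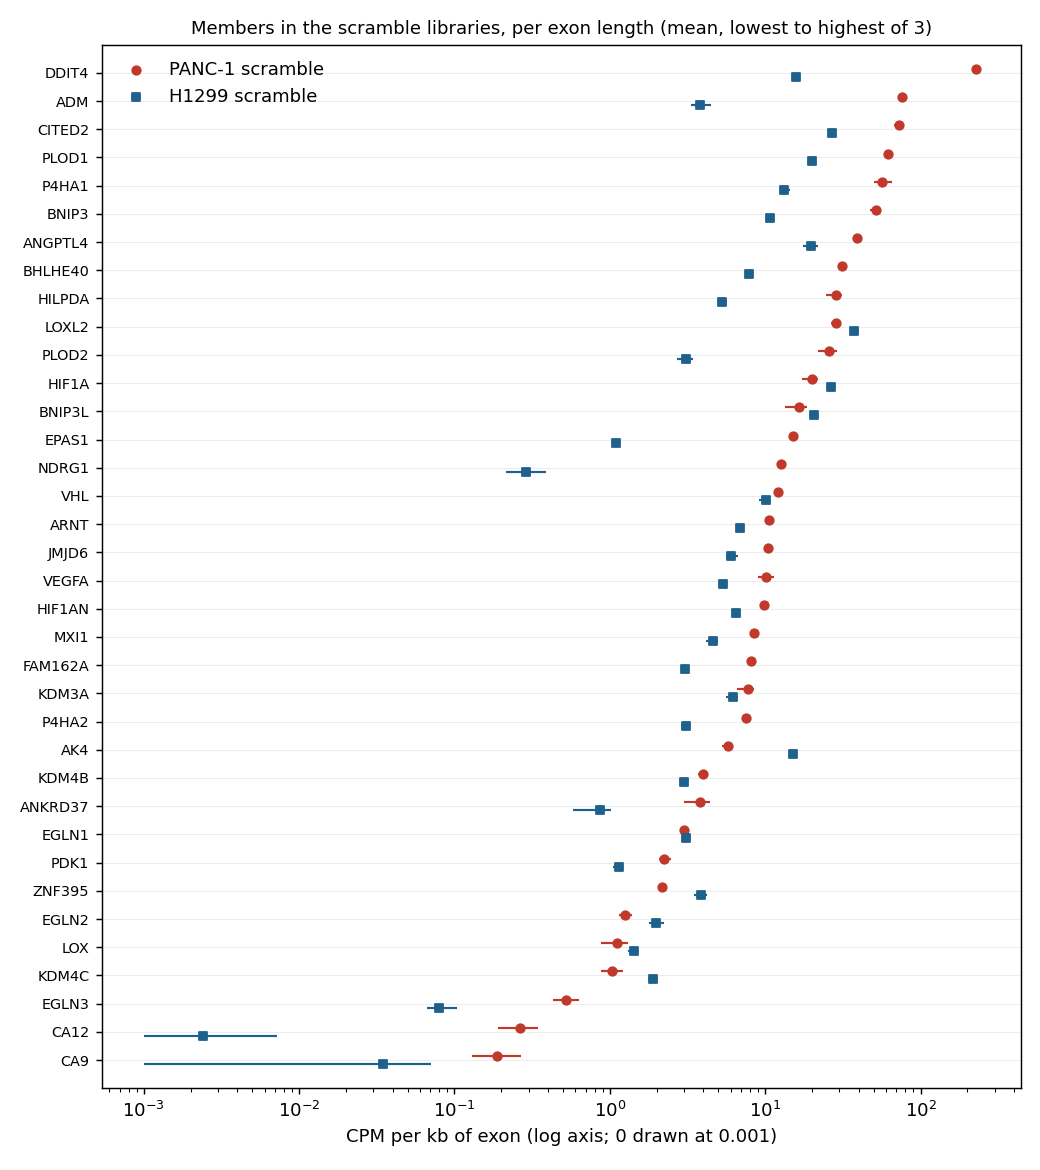
Level of each member in scramble libraries as CPM per kilobase of exon on a log axis, with circles for PANC-1 and squares for H1299 (mean of 3 libraries, lines from lowest to highest), ordered by the PANC-1 level. DDIT4 leads in PANC-1 at 227, while EPAS1, NDRG1 and ADM lie far lower in H1299 and AK4 lies higher there.

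Many members of this list, which was chosen with earlier results known, were lower after FOSL1 knockdown in PANC-1. Of the 35 members tested, 21 fell, 3 rose and 11 did not pass an adjusted p of 0.05 (edgeR quasi-likelihood test, Benjamini-Hochberg over all 16345 genes tested). The share of members that fell, 60.0%, stands beside 27.1% of all genes tested that fell, and the share that rose, 8.57%, beside 23.8%. With a log2 fold change past 0.5 as well, 14 members fell, against 15.8% of all genes, and 1 rose, against 10.6%. The median log2 fold change was -0.30 over the members and -0.021 over all genes tested. The largest decreases among members with at least 5 CPM were those of NDRG1, ANKRD37, HILPDA, PLOD2, ADM and PDK1, and the 3 that rose were EGLN2, CITED2 and KDM4C. The knockdown and scramble libraries did not overlap in 27 of the 35 members, against 57.2% of all genes tested. These 27 were all 24 members called, where 95.0% of all called genes did not overlap, and 3 that were not called (ARNT, HIF1AN and JMJD6). Without scramble replicate 1, which stood apart, 22 members fell and 4 rose. With mitochondrially encoded genes and the top 20 genes by count removed, 20 fell and 3 rose. COL1A1, which made up nearly all of the stromal marker counts above, fell in the same comparison, and its relation to the members was not tested.

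HDAC2 knockdown in H1299 gave smaller and fewer changes. Of the 33 members tested, 13 fell, 3 rose and 17 did not pass the same test (16465 genes tested). The share that fell was 39.4%, against 12.1% of all genes tested, and the share that rose was 9.09%, against 10.3%. Past a log2 fold change of 0.5, EPAS1, BNIP3, BHLHE40 and VEGFA fell (4 members, where 5.61% of all genes did) and ADM rose (1 member, where 1.45% of all genes did). The median over the members was -0.030, against -0.0049 over all genes tested. The groups did not overlap in 19 of the 33 members, against 37.2% of all genes tested. These were all 16 members called, where 95.5% of all called genes did not overlap, and HIF1AN, EGLN1 and BNIP3L, which were not called. Of the 16 calls, 7 were lost when some single library was left out, as given with each of them. Without scramble replicate 1, which stood apart, 13 fell and 4 rose.

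**Figure D2:**
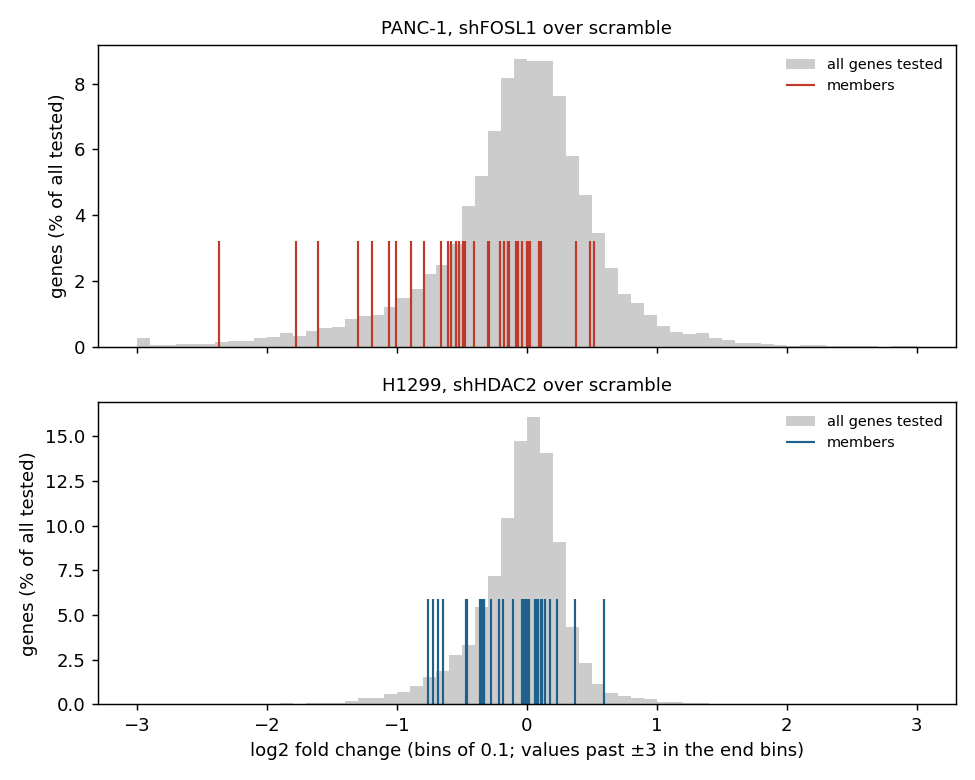
Histograms of the log2 fold change of all genes tested (grey, percent of genes per bin of 0.1) with each member as a vertical line, PANC-1 shFOSL1 over scramble above and H1299 shHDAC2 over scramble below. The PANC-1 lines reach down to -2.37 around a median of -0.30, while the H1299 lines lie between -0.76 and 0.59 around a median of -0.030.

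Among the HIF subunits, EPAS1, which encodes HIF-2 alpha, fell in both lines, and HIF1A and ARNT passed the test in neither. EPAS1 (chr2:46293667-46386697, plus strand, GRCh38) was at 66.4, 68.4 and 66.3 CPM in shFOSL1 libraries and at 105, 108 and 104 CPM in PANC-1 scramble libraries. The groups stood well apart, with a log2 fold change of -0.66 ± 0.065 (SE, adjusted p = 8.9e-09), which is 1.58-fold lower. From a much lower level, EPAS1 was at 4.56, 5.38 and 4.92 CPM in shHDAC2 libraries and at 8.83, 8.21 and 8.10 CPM in H1299 scramble libraries, again without overlap (-0.76 ± 0.15, adjusted p = 2.5e-04). The difference between both effects on EPAS1 was 0.12 ± 0.13 and did not pass the test (adjusted p = 0.53).

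HIF1A, which encodes HIF-1 alpha, was at 95.7, 95.0 and 93.8 CPM in shFOSL1 libraries and at 86.3, 109 and 102 CPM in PANC-1 scramble libraries. The knockdown values lay inside the range of the controls (-0.066 ± 0.075, adjusted p = 0.48). The low control was scramble replicate 1, and without it the log2 fold change was -0.13 with an adjusted p of 0.034. In H1299, HIF1A was at 146, 146 and 166 CPM in shHDAC2 libraries and at 134, 148 and 150 CPM in scramble libraries, which overlapped (0.086 ± 0.065, adjusted p = 0.37). ARNT, the partner subunit, was at 58.6, 61.3 and 59.7 CPM in shFOSL1 libraries and at 64.2, 64.1 and 68.6 CPM in PANC-1 scramble libraries. These values did not overlap, but the difference of -0.13 ± 0.070 missed the threshold (adjusted p = 0.12). ARNT overlapped in H1299, at 47.1, 50.03 and 43.9 CPM in shHDAC2 and 45.4, 48.9 and 45.3 CPM in scramble libraries (0.015 ± 0.075, adjusted p = 0.92).

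Of the oxygen sensors, the prolyl hydroxylase genes EGLN2 (PHD1) and EGLN3 (PHD3) changed in opposite directions in PANC-1. EGLN2 was at 10.7, 10.2 and 13.1 CPM in shFOSL1 libraries and at 8.87, 7.32 and 7.51 CPM in PANC-1 scramble libraries, higher in the knockdown without overlap (0.52 ± 0.14, adjusted p = 0.0026). In H1299 the order was turned, with 10.3, 9.42 and 9.94 CPM in shHDAC2 libraries and 15.3, 13.5 and 12.3 CPM in scramble libraries (-0.47 ± 0.12, adjusted p = 0.0037). EGLN2 shares 30.6% of its exon bases with other annotated genes, among them the read-through gene RAB4B-EGLN2, so its level is uncertain. EGLN3, itself a HIF target that feeds back on HIF, was at 1.71, 0.78 and 0.75 CPM in shFOSL1 libraries and at 3.06, 3.50 and 4.54 CPM in PANC-1 scramble libraries. It fell without overlap, by 1.78 ± 0.28 on the log2 scale (adjusted p = 1.2e-05), at levels below 5 CPM. In H1299 it was at 0.19, 0.49 and 0.71 CPM in shHDAC2 and 0.51, 0.54 and 0.79 CPM in scramble libraries, too low to test.

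EGLN1 (PHD2), the main HIF prolyl hydroxylase, did not pass in either line. It was at 13.5, 17.9 and 16.6 CPM in shFOSL1 libraries and at 15.9, 14.8 and 16.4 CPM in PANC-1 scramble libraries, which overlapped (0.027 ± 0.11, adjusted p = 0.86). Its 19.5, 22.1 and 19.6 CPM in shHDAC2 libraries all lay above the 18.1, 16.9 and 17.05 CPM in H1299 scramble libraries (0.23 ± 0.096, adjusted p = 0.079). Without H1299 scramble replicate 1 the log2 fold change of EGLN1 was 0.27 with an adjusted p of 0.045. EGLN1 shares 55.8% of its exon bases with an annotated gene on its own strand, so its counts are uncertain.

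VHL, the adaptor that recognises hydroxylated HIF, fell slightly in both lines. It was at 48.3, 51.2 and 53.1 CPM in shFOSL1 libraries and at 56.4, 59.2 and 60.5 CPM in PANC-1 scramble libraries, without overlap (-0.21 ± 0.073, adjusted p = 0.021). The call was lost without shFOSL1 replicate 1 or 2 or without scramble replicate 2 or 3, with an adjusted p of up to 0.15, and without the filter on low counts (0.070). VHL was at 39.6, 44.9 and 39.6 CPM in shHDAC2 libraries and at 55.3, 48.3 and 55.1 CPM in H1299 scramble libraries, also without overlap (-0.36 ± 0.078, adjusted p = 9.9e-04). An antisense gene shares 23.5% of the exon bases of VHL, and the strand setting of the counting is not given in the sources used here. HIF1AN, the asparaginyl hydroxylase that blocks coactivator binding, was at 118, 119 and 124 CPM in shFOSL1 libraries and at 134, 133 and 131 CPM in PANC-1 scramble libraries. Its difference of -0.14 ± 0.061 just missed the threshold (adjusted p = 0.052) and passed with limma-voom (adjusted p = 0.047), upper quartile scaling (0.030) and a minimum of 10 counts in every library (0.026). In H1299, HIF1AN was at 101, 97.5 and 101 CPM in shHDAC2 and 94.7, 93.5 and 94.8 CPM in scramble libraries (0.081 ± 0.062, adjusted p = 0.37).

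**Figure D3:**
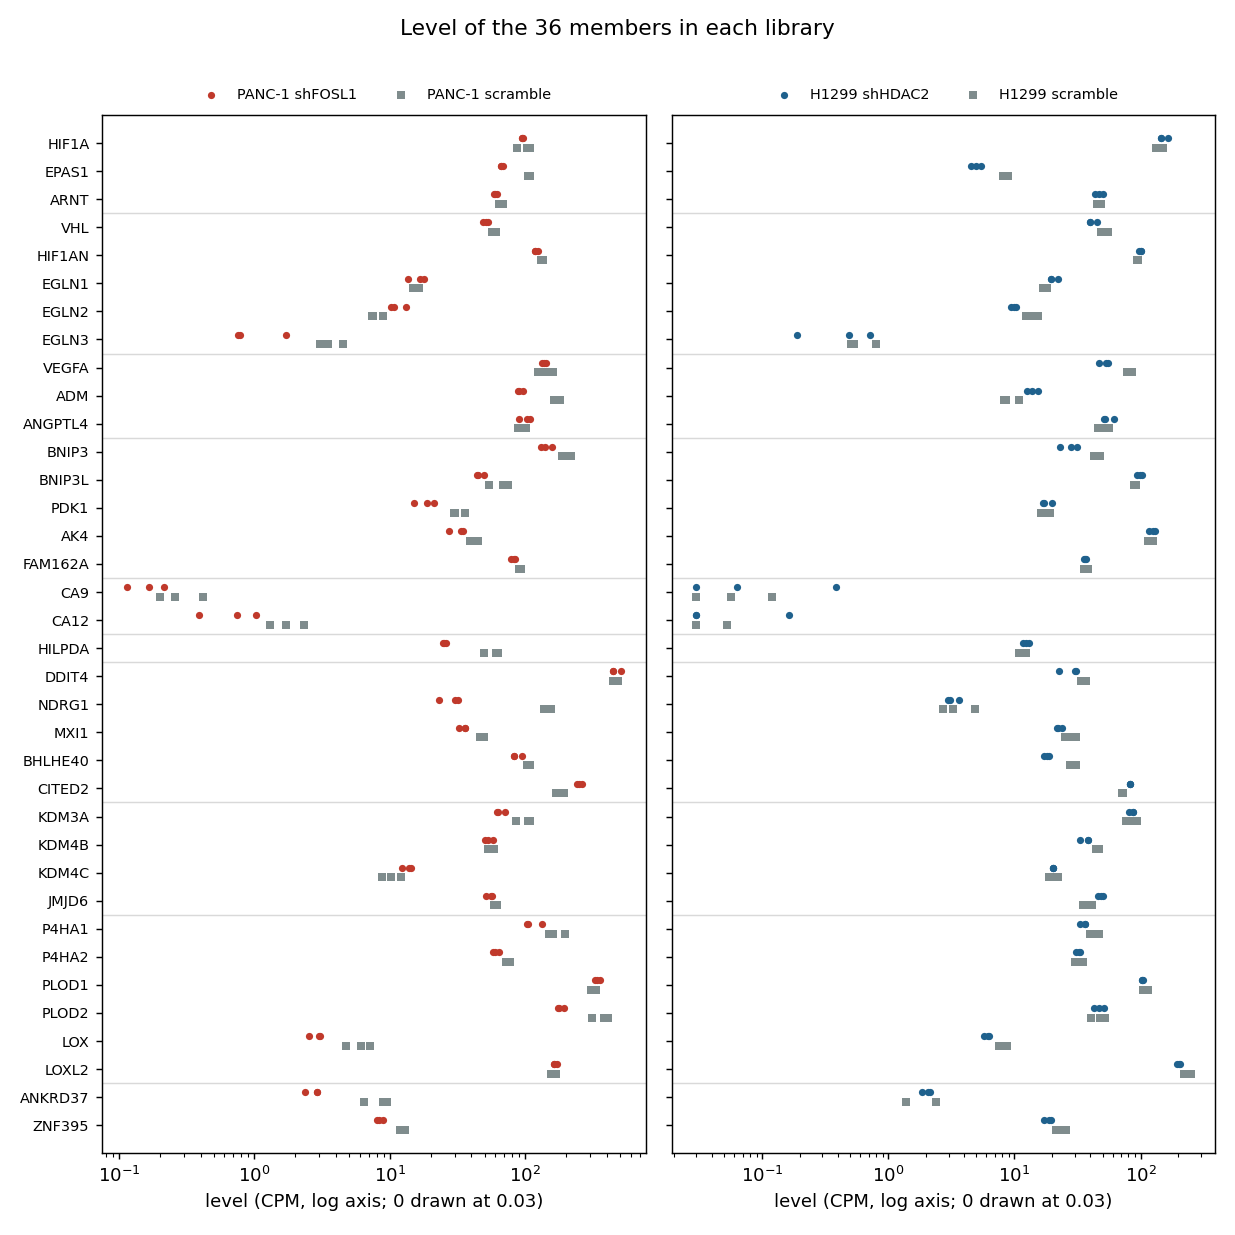
CPM of the 36 members in every library on a log axis (0 drawn at the left edge), grouped by role from HIF subunits at the top to further hypoxia-induced genes at the bottom. Circles are knockdown libraries (shFOSL1 in the left panel, shHDAC2 in the right) and squares scramble libraries; NDRG1 at 23.1 to 31.9 CPM lies far from its PANC-1 controls at 138 to 155 CPM, and the carbonic anhydrases CA9 and CA12 are the lowest members.

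The secreted signals did not share a direction. ADM, which encodes the vasodilator peptide adrenomedullin, was at 96.5, 90.0 and 88.8 CPM in shFOSL1 libraries and at 165, 164 and 181 CPM in PANC-1 scramble libraries. It fell 1.85-fold without overlap (log2 fold change -0.89 ± 0.065, adjusted p = 5.2e-11). In H1299, where ADM was far lower, it was at 12.5, 15.5 and 13.7 CPM in shHDAC2 libraries and at 10.9, 8.21 and 8.52 CPM in scramble libraries. There it rose 1.51-fold (0.59 ± 0.13, adjusted p = 7.2e-04), so ADM went opposite ways in the 2 comparisons.

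VEGFA, the main growth factor for blood vessels, was at 137, 141 and 134 CPM in shFOSL1 libraries and at 139, 125 and 159 CPM in PANC-1 scramble libraries. The groups overlapped and VEGFA did not pass (-0.036 ± 0.073, adjusted p = 0.70). In H1299 it was at 46.8, 55.1 and 53.5 CPM in shHDAC2 libraries and at 77.7, 79.5 and 86.1 CPM in scramble libraries, and fell 1.56-fold without overlap (-0.65 ± 0.073, adjusted p = 6.5e-08). ANGPTL4, which encodes an inhibitor of lipoprotein lipase, passed in neither line, with 90.1 to 108 CPM in shFOSL1 and 88.8 to 100.3 CPM in PANC-1 scramble libraries (0.11 ± 0.074) and 51.8 to 61.8 CPM in shHDAC2 and 45.6 to 55.8 CPM in H1299 scramble libraries (0.12 ± 0.081). Without PANC-1 scramble replicate 3 its log2 fold change was 0.18 with an adjusted p of 0.047.

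All 5 genes of mitophagy and metabolic switching fell in PANC-1, where 27.1% of all genes tested fell. The FAM162A call among them was unstable, as given below. In H1299, 1 of the 5 fell (20%, against 12.1% of all genes tested). BNIP3, a mitochondrial receptor for mitophagy, was at 131, 158 and 141 CPM in shFOSL1 libraries and at 201, 185 and 217 CPM in PANC-1 scramble libraries (-0.49 ± 0.071, adjusted p = 3.9e-06). It was also the member of this group that fell in H1299, with 31.3, 23.1 and 28.1 CPM in shHDAC2 libraries and 42.7, 45.8 and 47.5 CPM in scramble libraries (-0.72 ± 0.089, adjusted p = 3.5e-07). Neither line showed overlap, and the difference between both effects, 0.25 ± 0.12, did not pass (adjusted p = 0.11).

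PDK1, the kinase that shuts off pyruvate dehydrogenase, was at 15.2, 21.2 and 18.8 CPM in shFOSL1 libraries and at 29.7, 30.3 and 35.6 CPM in PANC-1 scramble libraries. It fell 1.73-fold without overlap (-0.79 ± 0.11, adjusted p = 2.2e-06). In H1299 the values overlapped, at 16.7 to 19.7 CPM in shHDAC2 and 16.2 to 19.0 CPM in scramble libraries (0.0064 ± 0.10). BNIP3L, a second mitophagy receptor, fell in PANC-1 (-0.52 ± 0.093) with 44.3 to 49.2 CPM in shFOSL1 and 54.0 to 75.0 CPM in scramble libraries, and was at 93.6 to 102.5 CPM in shHDAC2 and 88.6 to 91.3 CPM in H1299 scramble libraries (0.14 ± 0.064, not called). AK4, a mitochondrial adenylate kinase, fell in PANC-1 (-0.40 ± 0.092), with 27.3 to 34.6 CPM in shFOSL1 and 38.9 to 44.4 CPM in scramble libraries, and overlapped in H1299 at 117 to 131 CPM in shHDAC2 and 115 to 127 CPM in scramble libraries. FAM162A, a mitochondrial protein gene, was at 77.9 to 83.4 CPM in shFOSL1 and 89.9 to 92.5 CPM in PANC-1 scramble libraries (-0.17 ± 0.065, adjusted p = 0.029). That call held without scramble replicate 1 but was lost without any other single library (adjusted p up to 0.17) and under DESeq2 (0.053), RLE scaling (0.057), no low-count filter (0.11), removal of abundant genes (0.052) and a fit of all 12 libraries (0.054). In H1299, FAM162A overlapped at 35.6 to 36.9 CPM in shHDAC2 and 35.5 to 38.4 CPM in scramble libraries.

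The carbonic anhydrases, which export acid at the cell surface, were hardly expressed. CA9 was at 0.11 to 0.21 CPM in shFOSL1 and 0.20 to 0.42 CPM in PANC-1 scramble libraries, and at 0 to 0.38 CPM in shHDAC2 and 0 to 0.12 CPM in H1299 scramble libraries, with overlap in both lines. Its exons share 35.7% of their bases with ARHGEF39 on the opposite strand, so even these counts are uncertain. CA12 was at 0.74, 0.39 and 1.02 CPM in shFOSL1 and 1.30, 2.32 and 1.71 CPM in PANC-1 scramble libraries, where it fell (-1.29 ± 0.36, adjusted p = 0.0039) at levels near 1 CPM. In H1299 CA12 had counts in 1 of 3 libraries of each group. HILPDA, which coats lipid droplets and inhibits triglyceride breakdown, was at 24.6, 25.0 and 26.1 CPM in shFOSL1 libraries and at 60.8, 49.3 and 62.6 CPM in PANC-1 scramble libraries. It fell 2.28-fold with tight knockdown values far below the controls (-1.19 ± 0.091, adjusted p = 1.1e-10). In H1299 HILPDA overlapped, at 11.6 to 13.0 CPM in shHDAC2 and 10.8 to 12.4 CPM in scramble libraries (0.11 ± 0.11).

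NDRG1, a stress-induced gene and a classical hypoxia marker, had the largest change of any member. It was at 23.1, 31.9 and 30.2 CPM in shFOSL1 libraries and at 148, 138 and 155 CPM in PANC-1 scramble libraries, 5.17-fold lower (log2 fold change -2.37 ± 0.089, adjusted p = 1.2e-16). In H1299, NDRG1 was near 3 CPM in both groups, at 2.95 to 3.63 CPM in shHDAC2 and 2.74 to 4.87 CPM in scramble libraries, which overlapped (-0.18 ± 0.22). BHLHE40, a transcriptional repressor also known as DEC1, fell in both lines. It was at 82.2, 82.8 and 93.7 CPM in shFOSL1 libraries and at 109, 107 and 102.8 CPM in PANC-1 scramble libraries (-0.30 ± 0.068, adjusted p = 7.8e-04). The drop in H1299 was larger, with 18.9, 18.0 and 17.04 CPM in shHDAC2 libraries and 28.3, 30.9 and 27.6 CPM in scramble libraries (-0.68 ± 0.090, adjusted p = 1.2e-06), and BHLHE40 shares 12.8% of its exon bases with an antisense gene.

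CITED2, which competes with HIF for the coactivators CBP and p300, was the member that rose in both lines. It was at 241, 250 and 262 CPM in shFOSL1 libraries and at 193, 167 and 178 CPM in PANC-1 scramble libraries (0.48 ± 0.063, adjusted p = 6.6e-07). In H1299, CITED2 was at 82.0, 82.4 and 81.9 CPM in shHDAC2 and 71.9, 73.1 and 73.0 CPM in scramble libraries (0.18 ± 0.064, adjusted p = 0.045), a call kept without scramble replicate 1 and lost without any other single library, with an adjusted p of up to 0.13. It was also lost with upper quartile scaling (adjusted p = 0.076) and without the filter on low counts (0.081). MXI1, an antagonist of MYC, fell in PANC-1 (-0.47 ± 0.080), with 32.3 to 36.04 CPM in shFOSL1 and 46.2 to 49.8 CPM in scramble libraries, and in H1299 (-0.33 ± 0.090), with 21.8 to 23.8 CPM in shHDAC2 and 25.3 to 30.6 CPM in scramble libraries. The H1299 call of MXI1 was lost without scramble replicate 3 (adjusted p = 0.064). DDIT4, an inhibitor of mTORC1 also known as REDD1, overlapped in PANC-1 at 441 to 510 CPM in shFOSL1 and 443 to 485 CPM in scramble libraries (0.0045 ± 0.061). It fell in H1299, with 22.8 to 30.7 CPM in shHDAC2 and 33.5 to 36.8 CPM in scramble libraries (-0.33 ± 0.093, adjusted p = 0.010), a call lost without shHDAC2 replicate 1 (-0.20, adjusted p = 0.16) or scramble replicate 3 (adjusted p = 0.058).

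The Jumonji dioxygenases need oxygen to act, and 3 of them remove methyl groups from histone H3. KDM3A, which acts on lysine 9, fell in PANC-1 (-0.61 ± 0.082), with 61.9 to 70.7 CPM in shFOSL1 and 84.7 to 109 CPM in scramble libraries, and overlapped in H1299 at 81.4 to 87.4 CPM in shHDAC2 and 77.0 to 93.5 CPM in scramble libraries. KDM4C rose in PANC-1 (0.38 ± 0.13), with 12.4 to 14.2 CPM in shFOSL1 and 8.72 to 12.1 CPM in scramble libraries, a call lost without shFOSL1 replicate 2 (adjusted p = 0.063), and overlapped in H1299 at 20.2 to 20.3 CPM in shHDAC2 and 18.9 to 22.4 CPM in scramble libraries. KDM3A and KDM4C were thus the carriers of an AP-1 match with enough counts to test, and they moved in opposite directions. KDM4B was at 50.2 to 57.9 CPM in shFOSL1 and 52.6 to 59.2 CPM in PANC-1 scramble libraries (-0.084 ± 0.078, not called), and fell in H1299 (-0.34 ± 0.078), with 33.1 to 38.2 CPM in shHDAC2 and 44.6 to 46.9 CPM in scramble libraries. JMJD6, a dioxygenase that hydroxylates lysines of splicing factors, was at 50.8 to 56.3 CPM in shFOSL1 and 58.7 to 61.6 CPM in PANC-1 scramble libraries (-0.15 ± 0.073, adjusted p = 0.094). It rose in H1299 (0.37 ± 0.078, adjusted p = 6.4e-04), with 46.4 to 50.5 CPM in shHDAC2 and 35.2 to 41.1 CPM in scramble libraries.

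Enzymes that mature and cross-link collagen gave 4 decreases of 6 in PANC-1 (66.7%, against 27.1% of all genes tested). In H1299 they gave 3 of 6 (50%, against 12.1% of all genes tested). Each of these 3 H1299 calls was lost when some single library was left out. PLOD2, which hydroxylates lysines of collagen telopeptides, was at 174, 192 and 178 CPM in shFOSL1 libraries and at 309, 405 and 378 CPM in PANC-1 scramble libraries. It fell 2.01-fold without overlap (-1.01 ± 0.075, adjusted p = 6.5e-11), the largest loss in CPM of any member. In H1299 PLOD2 overlapped at 42.5 to 51.3 CPM in shHDAC2 and 40.7 to 52.3 CPM in scramble libraries (-0.0052 ± 0.085).

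Its relative PLOD1 was at 325 to 357 CPM in shFOSL1 and 307 to 334 CPM in PANC-1 scramble libraries (0.094 ± 0.058, not called), and without scramble replicate 1 the log2 fold change was 0.16 with an adjusted p of 0.0022. In H1299 PLOD1 was at 102 to 105 CPM in shHDAC2 and 105 to 114 CPM in scramble libraries (-0.10 ± 0.062, not called). P4HA1, an alpha subunit of collagen prolyl 4-hydroxylase, fell in PANC-1 (-0.58 ± 0.090), with 102 to 132 CPM in shFOSL1 and 150.2 to 196 CPM in scramble libraries. It also fell in H1299 (-0.28 ± 0.080, adjusted p = 0.011), with 33.3 to 36.5 CPM in shHDAC2 and 39.8 to 46.8 CPM in scramble libraries, a call lost without shHDAC2 replicate 2 (adjusted p = 0.087) or scramble replicate 2 (0.078) and in a fit of all 12 libraries (0.051). P4HA2, the other alpha subunit here, fell in PANC-1 (-0.29 ± 0.070), with 57.5 to 63.6 CPM in shFOSL1 and 72.1 to 76.5 CPM in scramble libraries, and overlapped in H1299 at 30.8 to 33.1 CPM in shHDAC2 and 30.2 to 35.1 CPM in scramble libraries.

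LOX, lysyl oxidase, was at 3.02, 3.07 and 2.52 CPM in shFOSL1 and 4.72, 6.13 and 7.11 CPM in PANC-1 scramble libraries (-1.06 ± 0.19, adjusted p = 4.9e-05). In H1299 LOX fell as well (-0.46 ± 0.14, adjusted p = 0.017), with 5.75 to 6.28 CPM in shHDAC2 and 7.59 to 8.80 CPM in scramble libraries. That call was lost without shHDAC2 replicate 1 (adjusted p = 0.076), scramble replicate 2 (0.053) or scramble replicate 3 (0.059). LOXL2, a lysyl oxidase-like enzyme, overlapped in PANC-1 at 163 to 173 CPM in shFOSL1 and 154 to 170 CPM in scramble libraries (0.021 ± 0.061). It fell slightly in H1299 (-0.21 ± 0.060, adjusted p = 0.011), with 195 to 206 CPM in shHDAC2 and 221 to 250.5 CPM in scramble libraries, and lost the call without shHDAC2 replicate 2 (adjusted p = 0.057) or 3 (0.085). COL1A1, a substrate of these enzymes and the main stromal marker counted above, fell by 1.69 ± 0.075 on the log2 scale in PANC-1.

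ANKRD37, an ankyrin repeat gene induced by HIF-1, was at 2.91, 2.90 and 2.36 CPM in shFOSL1 libraries and at 9.55, 6.49 and 8.87 CPM in PANC-1 scramble libraries. It fell 3.05-fold without overlap (-1.61 ± 0.18, adjusted p = 7.4e-08). Its exons share 40.3% of their bases with UFSP2 on the opposite strand, which also fell in this comparison (-0.55), so part of the ANKRD37 count is uncertain. In H1299 ANKRD37 overlapped, at 1.83 to 2.13 CPM in shHDAC2 and 1.38 to 2.38 CPM in scramble libraries. ZNF395, a zinc finger factor, fell in PANC-1 (-0.54 ± 0.12), with 8.06 to 8.83 CPM in shFOSL1 and 11.8 to 12.9 CPM in scramble libraries, and in H1299 (-0.35 ± 0.096), with 17.04 to 19.6 CPM in shHDAC2 and 21.4 to 25.5 CPM in scramble libraries. The H1299 call of ZNF395 was lost without shHDAC2 replicate 3 (adjusted p = 0.073) or scramble replicate 3 (0.056), and 35% of its exon bases are shared with FBXO16.

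**Figure D4:**
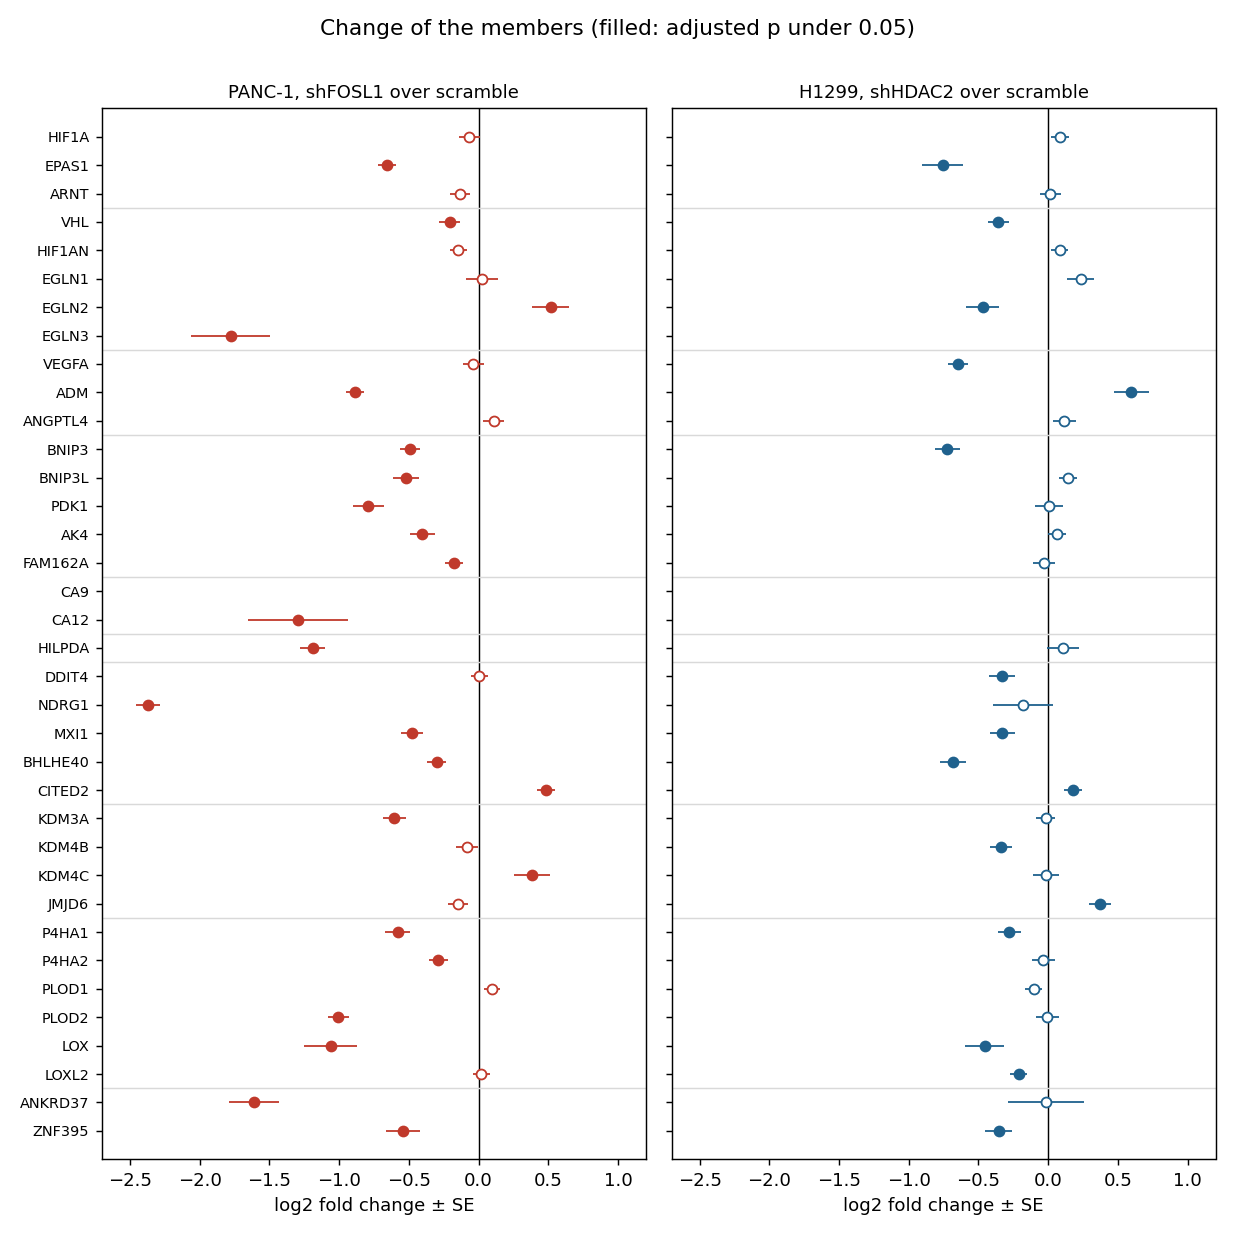
Log2 fold change with its standard error for each member, shFOSL1 over scramble in PANC-1 on the left and shHDAC2 over scramble in H1299 on the right, filled where the adjusted p is under 0.05 and left out where the gene was too low to test. In PANC-1, 21 filled points lie left of 0 and 3 right of it; in H1299, 13 lie left and 3 right.

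Set side by side, 8 of the 33 members tested in both comparisons fell in both (EPAS1, VHL, BNIP3, MXI1, BHLHE40, P4HA1, LOX and ZNF395). CITED2 rose in both, and ADM and EGLN2 were called in opposite directions. When some single library was left out, VHL lost the PANC-1 call, and MXI1, P4HA1, LOX, ZNF395 and CITED2 lost the H1299 call. Of the 14585 genes tested in both, 4.48% fell in both, 3.05% rose in both and 6.52% were called in opposite directions. In PANC-1 10 members fell that did not pass in H1299 (BNIP3L, PDK1, AK4, FAM162A, HILPDA, NDRG1, KDM3A, P4HA2, PLOD2 and ANKRD37), and 4 fell in H1299 that did not pass in PANC-1 (VEGFA, DDIT4, KDM4B and LOXL2). HIF1A, ARNT, HIF1AN, EGLN1, ANGPTL4 and PLOD1 passed in neither. The difference between both effects was tested over all 12 libraries and 18505 genes, where cell line and shRNA target cannot be told apart. Of 35 members tested, 10 had a lower log2 fold change in PANC-1 shFOSL1 than in H1299 shHDAC2 (15.5% of all genes did) and 8 a higher one (18.3% of all genes). The 35 included EGLN3 (-1.38 ± 0.59) and CA12 (-2.63 ± 1.63), which were too low to test within H1299, and neither passed. Among members called lower in PANC-1 alone, the difference passed for BNIP3L, PDK1, AK4, HILPDA, NDRG1, KDM3A, PLOD2 and ANKRD37. It did not pass for FAM162A (-0.12 ± 0.095) and P4HA2 (-0.23 ± 0.11). Among members called lower in H1299 alone, the difference passed for VEGFA, DDIT4 and LOXL2 but not for KDM4B (0.27 ± 0.11, adjusted p = 0.054). The differences of DDIT4 and LOXL2 were lost when some single library was left out. These members were picked by calls in the same libraries. The share passing among all genes picked in this way was not computed, so how many members passed is description only.

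**Figure D5:**
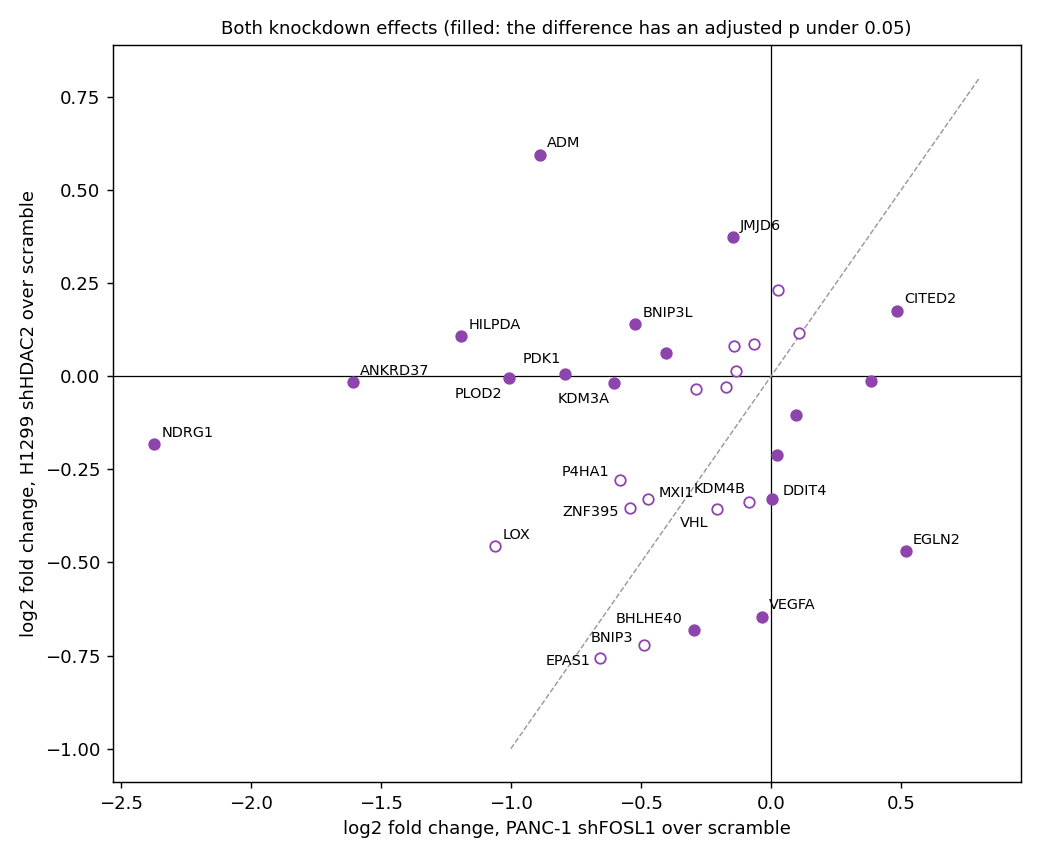
Log2 fold change of the 33 members tested in both lines, PANC-1 shFOSL1 over scramble on the horizontal axis and H1299 shHDAC2 over scramble on the vertical axis, filled where the difference passed the test; the dashed line marks equal effects. NDRG1, ANKRD37, HILPDA and PLOD2 stretch along the horizontal axis, VEGFA lies on the vertical one, and ADM and EGLN2 sit in opposite corners.

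Genes that work beside the members were read from lists chosen by role. Of 17 HIF partners and turnover genes tested in PANC-1, 6 rose (35.3%, against 23.8% of all genes tested), 6 fell (35.3%, against 27.1%) and 5 did not pass. SIAH1, a ubiquitin ligase that destroys prolyl hydroxylases, rose (0.78 ± 0.14), as did the coactivator EP300 (0.63 ± 0.074), while LIMD1, a scaffold for hydroxylases and VHL, fell (-0.44 ± 0.082). In H1299, 3 of 16 rose (18.8%, against 10.3% of all genes tested) and 1 fell (6.25%, against 12.1%). RBX1, the RING subunit of the VHL ligase, fell (-0.41 ± 0.076), and the chaperone HSP90AA1 (0.39 ± 0.056) and the ligase scaffold CUL2 (0.31 ± 0.075) rose.

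Of the 19 glycolytic HIF targets, 14 fell (73.7%, against 27.1% of all genes tested) and 1 rose (5.26%, against 23.8%) in PANC-1, with a median log2 fold change of -0.46 against -0.30 for the members. The glucose transporter SLC2A3 (-4.11 ± 0.19), the hexokinase HK2 (-1.90 ± 0.11) and the transporter SLC2A1 (-1.30 ± 0.078) fell most among those with at least 5 CPM. In H1299, 6 fell (31.6%, against 12.1% of all genes tested) and 1 rose (5.26%, against 10.3%), and the largest called changes at 5 CPM or more were those of the lactate transporter SLC16A3 (-0.40 ± 0.066), the isomerase GPI (-0.32 ± 0.058) and the hexokinase HK1 (-0.26 ± 0.067). Of 29 further HIF targets outside glycolysis tested in PANC-1, 20 fell (69.0%, against 27.1% of all genes tested) and 4 rose (13.8%, against 23.8%), with a median of -0.41. IGFBP3, a binding protein for insulin-like growth factors (-3.49 ± 0.17), the hormone gene STC1 (-2.16 ± 0.16) and the kinase PIM1 (-2.01 ± 0.076) fell most among those with at least 5 CPM. In H1299, 4 of 27 fell (14.8%, against 12.1% of all genes tested) and 5 rose (18.5%, against 10.3%), among them the hormone gene STC2 (-0.75 ± 0.10) and TMEM45A (-0.65 ± 0.14), which fell, and INSIG1 (0.47 ± 0.057), a brake on sterol synthesis, which rose. The 5 that rose in H1299 were INSIG1, STC1 (0.36 ± 0.059), IGFBP3 (0.90 ± 0.25, at a mean of 2.26 CPM), TFRC (0.36 ± 0.065) and HMOX1 (0.33 ± 0.068). In PANC-1, STC1, IGFBP3, INSIG1 (-0.55 ± 0.077) and HMOX1 (-0.19 ± 0.062) fell, and TFRC did not pass. The lists were chosen with earlier results known, so their counts describe these genes and are no test of the pathway.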

How the data were processed

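The authors deposited raw counts of reads for 60668 genes in 12 libraries. The submitters' processing notes name cutadapt, FastQC, STAR 2.7.2b, featureCounts 2.0.1 and GRCh38. The annotation release and strand setting are not given in the sources used here. Within each line, 3 knockdown and 3 scramble libraries were compared in edgeR 4.0.16 under R 4.3.3 (filterByExpr, TMM scaling, quasi-likelihood test, no covariate, Benjamini-Hochberg over all genes tested, adjusted p under 0.05). The difference between both effects was a contrast over 12 libraries. The members and lists were chosen with earlier results of these data known. Every member is named; full statistics go to HIF subunits and oxygen sensors and, per comparison, to the 6 largest called changes at 5 CPM or more, and other lists give up to 3 such genes. Levels are CPM on TMM-scaled totals, and exon lengths and overlaps come from GENCODE 44. Depth limits genes under about 1 CPM. The alternatives were DESeq2 1.42.0, limma-voom (limma 3.58.1), RLE and upper quartile scaling, other filters, the replicate block, a single fit, a fold threshold, leaving out abundant genes, and leaving out each library.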

Additional observations from a re-analysis of the deposited data

Results flagged for a closer look

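The effects of shFOSL1 in PANC-1 and of shHDAC2 in H1299 differed for 18 members in the edgeR quasi-likelihood test of the difference (log2 fold change in PANC-1 minus that in H1299, Benjamini-Hochberg over all genes). The most negative differences were those of NDRG1 (-2.16, adjusted p = 7.4e-09), ANKRD37 (-1.57, adjusted p = 2.3e-04), ADM (-1.46, adjusted p = 3.5e-10), HILPDA (-1.28, adjusted p = 2.5e-08) and PLOD2 (-0.98, adjusted p = 1.6e-07). They were -0.78 for PDK1, -0.64 for BNIP3L, -0.57 for KDM3A, -0.50 for JMJD6 and -0.44 for AK4. Positive differences were 1.01 for EGLN2 (adjusted p = 5.0e-05), 0.63 for VEGFA, 0.42 for KDM4C, 0.40 for BHLHE40, 0.35 for DDIT4, 0.33 for CITED2, 0.25 for LOXL2 and 0.22 for PLOD1. For CITED2 both effects were positive and for BHLHE40 both were negative. The differences of DDIT4, KDM4C, PLOD1 and LOXL2 lost the call when some single library was left out (adjusted p up to 0.18 for DDIT4, 0.14 for KDM4C, 0.22 for PLOD1 and 0.17 for LOXL2). Those of KDM4C, PLOD1 and LOXL2 were also lost with DESeq2 (adjusted p = 0.065 for KDM4C, 0.094 for PLOD1 and 0.052 for LOXL2), with RLE scaling and without the filter on low counts. KDM4C and PLOD1 lost it as well with upper quartile scaling and without abundant genes, and PLOD1 with at least 10 counts in every library. Cell line and target differ together here and cannot be told apart.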

How the results depend on the processing

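Of the members called, 21 of 24 in PANC-1, 9 of 16 in H1299 and 14 of 18 in the difference kept the call and direction without each library and under each alternative other than the fold threshold, and no called member changed sign. With a log2 fold change past 0.5 required, 15, 5 and 11 of them stayed called. The counts of members that fell and rose in PANC-1 (21 and 3) were 19 to 22 and 2 to 4 without single libraries, those in H1299 (13 and 3) 9 to 13 and 2 to 4, and those of lower and higher differences (10 and 8) 10 to 14 and 4 to 8. By direction, under that threshold 1 member rose in PANC-1, and 4 fell and 1 rose in H1299, while the genes called among all tested were 4326 against 8312 in PANC-1 and 1162 against 3695 in H1299. DESeq2, RLE scaling and no filter beyond 1 count each gave 5 higher differences. With the replicate block, 21 fell and 3 rose in PANC-1, 13 fell and 2 rose in H1299, and 10 differences were lower and 7 higher; the calls lost were CITED2 in H1299 (adjusted p = 0.053) and the difference of PLOD1 (0.057). Same-numbered libraries did not deviate together (correlations of -0.068 to 0.056). No pairing by number was thus seen, but with 3 libraries per group this check cannot exclude one.

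A total of 14 values of members that did not pass changed sign under some alternative. DDIT4 in PANC-1 was at -0.018 with upper quartile scaling and -0.015 with at least 10 counts in every library, and LOXL2 at -0.0022 with upper quartile scaling. In H1299, PLOD2 was at 7.2e-04 with DESeq2, 7.8e-04 with RLE scaling and 0.0025 without the filter, ANKRD37 at 0.035 with limma-voom and 0.0042 with the replicate block, and ARNT and PDK1 at -0.0039 and -0.012 with upper quartile scaling. Without single libraries, PANC-1 values ran from -0.053 to 0.14 for EGLN1, -0.060 to 0.052 for DDIT4, -0.13 to 0.023 for HIF1A, -0.0055 to 0.067 for LOXL2 and -0.10 to 0.073 for VEGFA. H1299 values ran from -0.063 to 0.057 for PDK1, -0.030 to 0.064 for ARNT, -0.089 to 0.044 for KDM3A, -0.092 to 0.079 for PLOD2, -0.24 to 0.12 for ANKRD37, -0.067 to 0.056 for KDM4C, -0.094 to 0.014 for P4HA2, -0.057 to 5.2e-04 for FAM162A and -0.34 to 0.10 for NDRG1. The cause of these shifts was not tested.

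Limits are that, in the sequenced libraries, each target was hit with 1 shRNA in 1 line and that FOSL1 RNA fell only by 0.43 on the log2 scale. Counts under 1 CPM allowed no test of CA9 within either line, and none of CA12 and EGLN3 within H1299.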
